A study of Mus musculus with 16 samples.

Results

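The 30 genes described here make, move and sense cholesterol: the enzymes of the mevalonate and sterol pathway, the proteins that control the transcription factors SREBP1 and SREBP2, and genes of sterol transport, uptake control and efflux. They were chosen by name, though with earlier results of these data known, and all 30 are among the 54456 gene rows of the count table. All 30 also passed the filter on low counts that left 15675 genes for testing. The T cells sequenced were those of OT-I mice, a line whose CD8 T cells carry a transgenic receptor for an ovalbumin peptide. The sources were lymph nodes (LN) and visceral fat (visceral adipose tissue, VAT) of lean animals on standard chow and of animals given a high-fat diet (HFD, 60% of kcal from fat) for 8 weeks. Each of the 4 groups, lean LN, HFD LN, lean VAT and HFD VAT, had 4 libraries. All 4 groups are OT-I, and the labels give no age, sex or pooling of the animals. The labels call the cells freshly isolated, the series text says that they were kept in culture overnight and then sorted as T cells, and the column names of the table carry the term Neg-OVA without an explanation. The replicates are labelled as biological with nothing further, so the p-values below set a difference between groups against the spread between these libraries. In bulk RNA, fewer cells of a type and less RNA per cell cannot be told apart.

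Libraries held 40212388 to 65957407 counts. Levels are given in CPM, counts scaled to a common library size with edgeR's TMM factors, and 3 counts in a library correspond to 0.0437 to 0.0803 CPM. Of the tested genes, 18.4% to 26.4% had 3 counts or fewer in the HFD VAT libraries and 25.6% in lean VAT replicate 1, against 8.93% to 15.7% in the other 11 libraries. All 6 CD8 T cell markers examined were present in every group, with a summed level of 5505 to 8772 CPM. The genes of the CD8 chains went opposite ways between the tissues, without overlap. Cd8a was at 533 to 854 CPM in LN and at 1674 to 2299 CPM in VAT. Cd8b1 was at 1965 to 2262 CPM in LN and at 1077 to 1703 CPM in VAT. The other CD8 T cell markers overlapped between the tissues. The 7 B and plasma cell markers summed to 1474 to 2538 CPM in the LN libraries and to 84.3 to 360 CPM in the VAT libraries. The 5 dendritic cell markers summed to 128 to 824 CPM in LN and to 62.1 to 146 CPM in VAT, but they did not move together. Cd74, which B cells also express, made up most of the LN sum, at 128 to 807 CPM in LN and 15.1 to 54.0 CPM in VAT. Itgax went the other way, at 0 in 7 of 8 LN libraries and at 34.2 to 108 CPM in 7 of 8 VAT libraries, and Siglech was at 0 counts in 3 groups. The 8 macrophage markers summed to 33.4 to 188 CPM over all libraries, again with opposite parts. Cd68 was at 18.9 to 131 CPM in VAT and at 0 to 6.07 CPM in LN. Apoe was at 0 to 12.3 CPM in VAT and at 39.3 to 182 CPM in LN, and C1qa was at 0 counts in every group. Single VAT libraries held others: C1qb at 25.7 CPM and Csf1r at 9.73 CPM in HFD VAT replicate 1. Lyz2 was at 16.1 CPM in HFD VAT replicate 4 and at 17.8 CPM in lean VAT replicate 4. These 3 genes were at or near 0 in all other libraries. The 6 adipocyte and stroma markers summed to 71.2 to 205 CPM in LN and to 29.4 to 98.4 CPM in VAT, most of it Pecam1, which marks endothelium and is also found on T cells. Adipoq was at 0 counts in both VAT groups, and Plin1, Lep and Pdgfra did not exceed 0.916 CPM in any library. Col1a1 reached 11.9 CPM in lean VAT replicate 1 and did not exceed 0.947 CPM in the other libraries. The part of these other cell types in the tissue differences below was not tested.

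Cells build cholesterol from acetyl-CoA. Cytosolic thiolase and HMG-CoA synthase feed the mevalonate steps, squalene is made and closed into lanosterol, and a series of later enzymes turns lanosterol into cholesterol. SREBP2, and to a lesser degree SREBP1, switch these genes on when SCAP carries them from the endoplasmic reticulum to the Golgi, and the INSIG proteins hold SCAP back when sterols are plentiful. When sterols accumulate, LXR receptors induce the exporters ABCA1 and ABCG1 and the ubiquitin ligase MYLIP, which removes lipoprotein receptors from the surface. T cells that divide need this pathway for new membrane.

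Acat2, the cytosolic acetoacetyl-CoA thiolase that supplies the first condensation of the pathway, was the only one of the 30 genes that edgeR called, and it did so in 1 of 5 comparisons. DESeq2 and limma voom called other genes, which are named with each comparison below. It fell in HFD VAT against HFD LN, 34.2-fold on the fitted scale. Its position in the annotation (GENCODE M21, build GRCm38, which is not stated to be the authors' reference) is chromosome 17, 12942890 to 12960747, on the minus strand, with 10 exon blocks. Acat2 is a different gene from Soat2, the sterol acyltransferase that has shared the alias ACAT2.

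In lean LN, Acat2 stood at 65.5, 61.6, 41.7 and 30.7 CPM (mean 49.9 ± 16.5, SD, n = 4). In HFD LN it stood at 17.6, 62.2, 1.41 and 88.7 CPM (mean 42.5 ± 40.1, SD, n = 4). The HFD LN libraries were therefore spread over a wide range, with replicate 3 far below the other three. In lean VAT the levels were 4.23, 29.4, 62.9 and 31.3 CPM (mean 32.0 ± 24.05, SD, n = 4). In HFD VAT they were 0.480, 2.07, 0.777 and 1.63 CPM (mean 1.24 ± 0.738, SD, n = 4). All 4 HFD VAT libraries were below every lean VAT library, whereas HFD LN replicate 3 lay inside the HFD VAT range.

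The fitted log2 difference of Acat2 between HFD VAT and HFD LN was -5.10 (SE 1.14, edgeR quasi-likelihood adjusted p = 0.0198). In lean animals the tissue difference was -0.64 (SE 0.96, edgeR adjusted p = 0.950). Between HFD and lean VAT it was -4.69 (SE 1.12), with an unadjusted edgeR p of 0.000936 and an adjusted p of 0.274, so it did not pass over all genes. The diet difference in LN was -0.23 (SE 0.96, edgeR adjusted p = 1). The test of whether diet acted unequally in the tissues (diet effect in VAT minus that in LN) gave -4.45 (SE 1.42), with an unadjusted edgeR p of 0.00734 and an adjusted p of 0.524. These comparisons share libraries and are not independent of each other.

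The Acat2 call in HFD animals held in 10 of 17 alternatives, all with the same direction, and adjusted p ranged from 7.04e-07 with DESeq2 to 0.126 with limma voom. It was lost when any one of HFD LN replicate 4 (adjusted p = 0.0556), HFD VAT replicate 1 (0.0613) or HFD VAT replicate 3 (0.0593) was left out of the edgeR fit. Without the 3 VAT libraries richest in genes at 3 counts or fewer (HFD VAT replicates 1 and 3, lean VAT replicate 1), the log2 difference was -4.53 with an edgeR adjusted p of 0.111. In HFD VAT replicates 2 and 4, which had the fewest such genes of that group, Acat2 was still only 2.07 and 1.63 CPM.

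Acat2 has a close neighbour, Acat3, at 12923813 to 12940600 on the same strand of chromosome 17. Of the distinct 31-base words of Acat2 transcripts in the annotation, 43.7% also occur in Acat3, so reads can be divided between both genes. Acat3 stood at 4.41, 3.88, 2.96 and 2.22 CPM in lean LN and at 1.501, 3.47, 0 and 4.81 CPM in HFD LN. In lean VAT it was 0.0452, 1.85, 5.26 and 2.19 CPM, and no HFD VAT library had a count of it. The pair was thus low in the same libraries, and how the authors' counting split reads between them was not tested.

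The promoter of Acat2 and that of Hmgcs1 are shown because Acat2 is the gene that edgeR called and Hmgcs1 was the only one whose window held the sterol-response-like motif searched for. The sequences run 5′ to 3′ on the gene's strand, from 250 bases before to 50 bases after the start site, in RefSeq annotation of GRCm38.p6, at chr17:12960676-12960975 (minus strand) for Acat2 and chr13:119690101-119690400 (plus strand) for Hmgcs1. Capitals mark matches on either strand. Those searched for were the sterol-response-like letters TCACNCCAC, the CCAAT box recognised by the factor NF-Y, the GC box written as GGGCGG for factors of the Sp family, and the E-box CACGTG bound by helix-loop-helix factors. The window of each gene is given whole.
Acat2: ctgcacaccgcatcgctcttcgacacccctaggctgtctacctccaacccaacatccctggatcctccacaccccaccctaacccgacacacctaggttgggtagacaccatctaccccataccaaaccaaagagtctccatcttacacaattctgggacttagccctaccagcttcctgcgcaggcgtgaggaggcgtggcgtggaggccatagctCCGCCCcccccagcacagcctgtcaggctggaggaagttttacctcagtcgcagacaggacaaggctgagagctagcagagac
Hmgcs1: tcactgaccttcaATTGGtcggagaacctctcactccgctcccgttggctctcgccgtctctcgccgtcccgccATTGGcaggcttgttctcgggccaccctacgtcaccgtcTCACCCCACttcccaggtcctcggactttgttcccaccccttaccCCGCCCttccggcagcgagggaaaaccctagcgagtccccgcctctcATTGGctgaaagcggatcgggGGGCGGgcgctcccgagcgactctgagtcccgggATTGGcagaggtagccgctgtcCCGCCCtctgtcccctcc
The Acat2 window held 1 match, a GC box read on the opposite strand 33 bases before the start site. The Hmgcs1 window held the motif TCACCCCAC 137 bases before the start site, with 4 CCAAT and 3 GC box matches around it.

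RefSeq windows were matched for 24 of the 30 genes, 32 windows in all, and no matches overlapped each other. TCACNCCAC was found in 1 of the 32 windows and in 1.24% of all 32851 windows of the same length. CCAAT stood in 65.6% of the sterol gene windows and in 37.4% of all windows. The GC box GGGCGG stood in 81.3% of them and in 35.7% of all windows, and CACGTG in 21.9% against 7.15%. Windows for Fdps, Fdft1, Sqle, Stard4, Abcg1 and Npc1 were not used here. These are letter matches in short windows and were not set against the expression values.

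In HFD animals the tissue comparison called 1 of the 30 genes, the fall in Acat2, where 4.56% of all tested genes passed in either direction and 1.88% passed as lower in VAT. At an unadjusted edgeR p under 0.05, 2 were higher (Srebf1 and Npc2) and 3 lower (Acat2, Hsd17b7 and Srebf2), where 18.8% of all tested genes lay under that p. DESeq2 called 4 (Srebf1 and Npc2 higher, Acat2 and Hsd17b7 lower) and 16.9% of all genes to which it gave an adjusted p, and limma voom called 1 (Npc2, higher) and 6.44% of all genes. Taken in either direction, none of these counts was above the share of all genes. The edgeR count of genes called as lower, 1 of 30, was above the 1.88% of all tested genes, through Acat2 alone. The median log2 difference of the 30 genes was -0.30, and that of all tested genes -0.10. Libraries of the tissues did not overlap for 1 gene higher in HFD VAT (Npc2, background 7.21%) and for 1 lower (Srebf2, background 8.01%).

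In lean animals the tissue comparison called 0 of the 30 by edgeR, where 3.04% of all tested genes passed. At an unadjusted p under 0.05, 2 were higher in VAT (Srebf1 and Abca1) and 0 lower, where 13.8% of all tested genes lay under that p. DESeq2 called 2 (Srebf1 and Abca1) and 10.3% of all genes, and limma voom called 1 (Srebf1) and 8.76% of all genes. The median log2 difference was 0.25 for the 30 genes and -0.00 for all tested genes. Libraries did not overlap for 3 genes higher in lean VAT (Srebf1, Mylip and Abcg1, background 7.24%) and for 1 lower (Fdps, background 5.7%).

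For HFD against lean in VAT, edgeR called 0 of the 30, where 0.0574% of all tested genes passed. At an unadjusted p under 0.05, 4 were lower on HFD (Acat2, Sqle, Hsd17b7 and Abcg1) and 0 higher, where 8.08% of all tested genes lay under that p. DESeq2 called 3 (Acat2, Sqle and Hsd17b7, all lower) and 5.03% of all genes, and limma voom called 0 and 0.204% of all genes. The fitted value was lower on HFD for 22 of the 30 genes, with a median log2 difference of -0.51 against -0.10 for all tested genes. Without the 3 VAT libraries named above, the fitted value was lower on HFD for 19 of the 30, and its sign turned for 11. Libraries did not overlap for 3 genes lower on HFD (Acat2, Sqle and Abcg1), where the background was 2.1%, and for 0 genes higher, where it was 1.12%.

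For HFD against lean in LN, edgeR called 0 of the 30 and 0% of all tested genes, with 0 of the 30 at an unadjusted p under 0.05 (3.37% of all genes), 0 by DESeq2 (1.54% of all genes) and 0 by limma voom (0.0191% of all genes). The median log2 difference was -0.08, against 0.00 for all tested genes, and libraries overlapped for all 30 genes, where 2.26% of all tested genes did not overlap. For the difference between the diet effects, edgeR called 0 of the 30, where 0.0191% passed. At an unadjusted p under 0.05, 3 had a lower diet effect in VAT than in LN (Acat2, Hsd17b7 and Abca1), where 6.16% of all genes lay under that p. DESeq2 called 1 (Acat2) and 4.15% of all genes, and limma voom called 0 and 0.0383% of all genes.

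**Figure D1:**
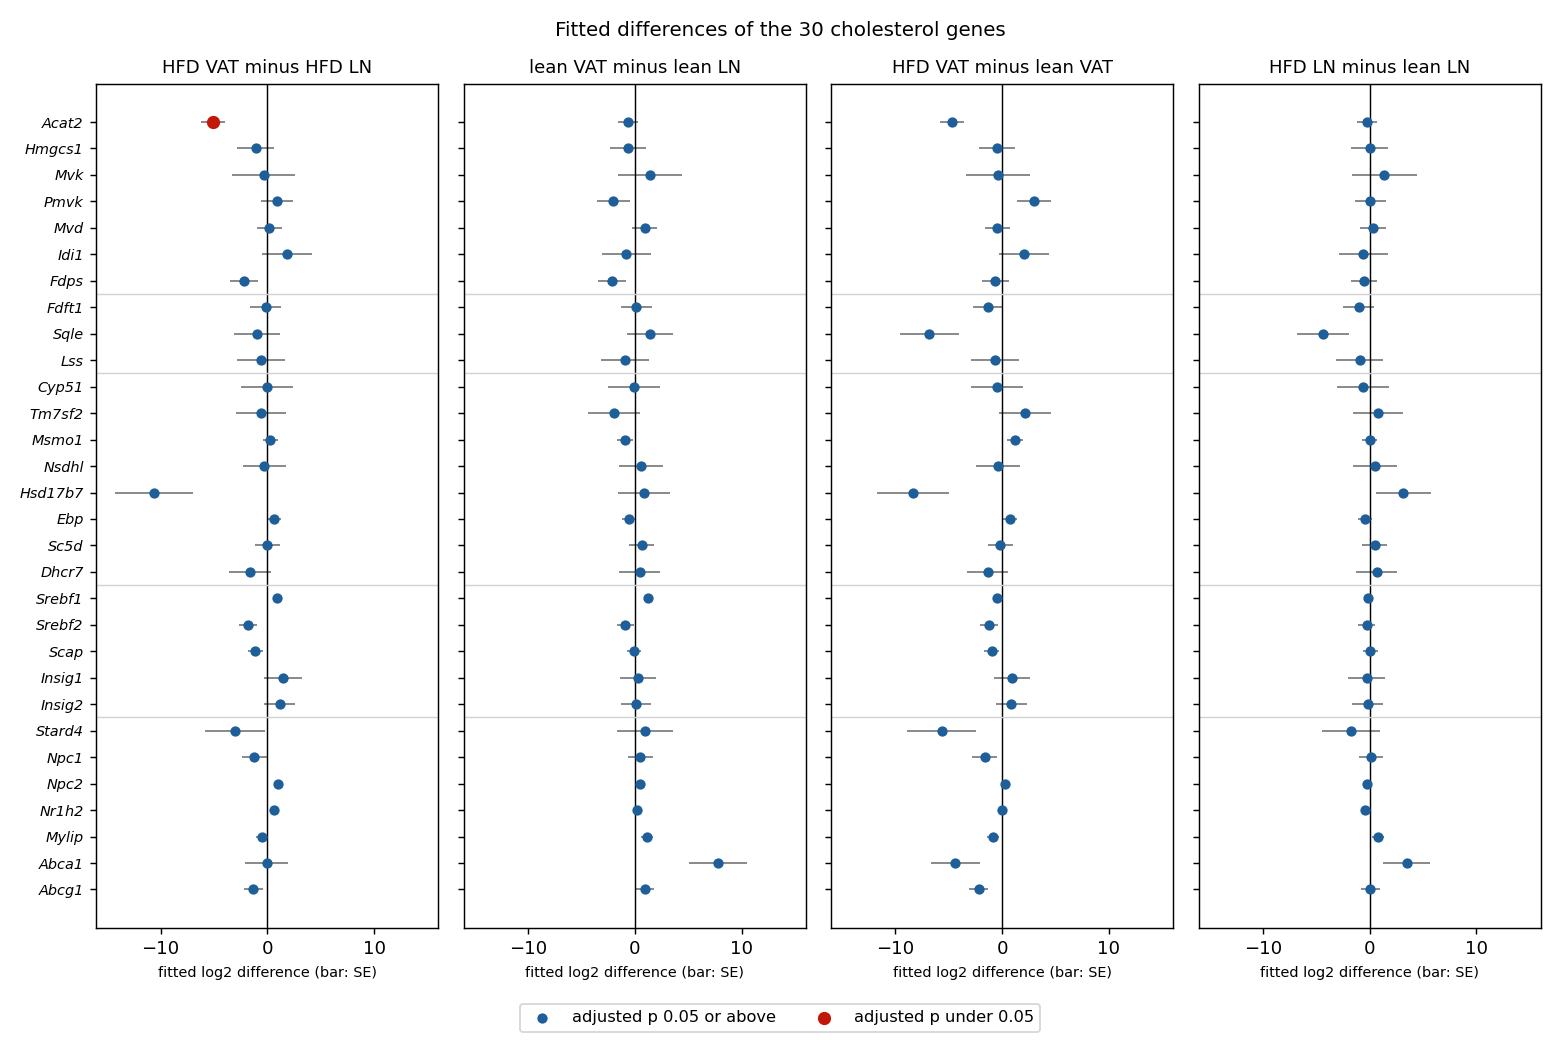
Fitted log2 differences of the 30 genes in each comparison, with standard errors as bars and genes ordered by role. The Acat2 value in HFD VAT against HFD LN, -5.10, is the only one that passed edgeR's adjusted threshold of 0.05.

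Among the other mevalonate genes, Fdps, which makes farnesyl diphosphate, was set apart by tissue in lean animals. Its levels were 4.79, 3.65, 5.38 and 4.18 CPM in lean LN (mean 4.50 ± 0.750, SD, n = 4) and 1.06, 1.13, 0.745 and 1.23 CPM in lean VAT (mean 1.04 ± 0.209, SD, n = 4). Every lean VAT library was below every lean LN library, yet the fitted log2 difference of -2.11 (SE 1.30) had an edgeR adjusted p of 0.594. In HFD animals the levels were 3.94, 7.62, 0.440 and 0.383 CPM in LN and 0.240, 0.205, 0 and 2.24 CPM in VAT, which overlapped. The annotation places 27.9% of the 31-base words of Fdps in other genes, most of them in the overlapping gene model Gm43738, so its counts are uncertain.

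Hmgcs1, the cytosolic HMG-CoA synthase, varied widely within groups. It stood at 58.4, 0.108, 12.8 and 82.2 CPM in lean LN and at 53.8, 51.2, 15.9 and 32.6 CPM in HFD LN. In lean VAT it stood at 22.5, 33.9, 10.2 and 33.3 CPM, and in HFD VAT at 0, 46.2, 25.3 and 0.0932 CPM. All 4 groups overlapped, and the HFD VAT libraries ranged from no count to 46.2 CPM. The fitted difference between HFD VAT and HFD LN was -1.10 (SE 1.72, edgeR adjusted p = 0.857).

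Mvk and Pmvk phosphorylate mevalonate, Mvd forms isopentenyl diphosphate from it, and Idi1 isomerises that product. None of the 4 passed the edgeR test in any comparison. Mvk had 3 counts or fewer in 8 of 16 libraries and reached 25.9 CPM in lean VAT replicate 4. Pmvk ranged from 0 to 9.61 CPM in lean VAT and from 1.21 to 107 CPM in HFD VAT, and these groups overlapped (log2 difference 2.99, SE 1.59, edgeR adjusted p = 0.701). Mvd was above 3 counts in every library, from 0.0873 CPM in HFD VAT replicate 1 to 110 CPM in lean VAT replicate 1. Idi1 had 3 counts or fewer in 6 libraries and was highest, at 30.7 CPM, in HFD VAT replicate 1.

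Squalene epoxidase, Sqle, performs the first oxygen-requiring step and is a control point of the pathway. It stood at 5.63, 45.6, 23.0 and 35.3 CPM in lean VAT (mean 27.4 ± 17.2, SD, n = 4) and at 0, 0, 0 and 0.955 CPM in HFD VAT (mean 0.239 ± 0.478, SD, n = 4). All lean VAT libraries were above all HFD VAT libraries, and 3 of the 4 HFD VAT libraries had no count. In LN it stood at 23.3, 0.0180, 4.28 and 12.6 CPM in lean animals and at 0, 0.137, 0 and 1.77 CPM on HFD, which overlapped. The fitted log2 difference between HFD and lean was -6.82 (SE 2.75, edgeR unadjusted p 0.0265 and adjusted p = 0.550) in VAT and -4.40 (SE 2.45, edgeR adjusted p = 1) in LN. DESeq2 called the VAT difference, with an adjusted p of 0.0321, and the difference between the diet effects had an edgeR adjusted p of 1.00. In the 3 HFD VAT libraries with no Sqle count, 6 to 10 of the 30 genes had 3 counts or fewer, and the part of these low counts in the difference was not tested.

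Fdft1, squalene synthase, and Lss, which closes squalene epoxide into lanosterol, were not called by edgeR, DESeq2 or limma voom in any comparison. Fdft1 was at 23.0 to 49.8 CPM in lean LN and at 21.02 to 61.9 CPM in lean VAT, and in HFD VAT it stood at 0.0218, 20.4, 0.0268 and 36.1 CPM. Its 2 lowest libraries were HFD VAT replicates 1 and 3, where Lss also had no count. Of the 31-base words of Fdft1, 31.9% occur in other genes, the most in Ctsb, which overlaps it on the opposite strand. Lss stood at 31.8, 0, 45.3 and 30.3 CPM in lean LN and at 8.80 to 20.7 CPM in HFD LN.

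The 8 enzymes after lanosterol gave no call by edgeR in any of the 5 comparisons, and DESeq2 called 1 of them, Hsd17b7, a 3-keto-sterol reductase, in 2. It stood at 17.7, 3.45, 31.6 and 0 CPM in HFD LN, and the 4 HFD VAT libraries held 1 count of it in all. It was also sparse in lean animals, at 5.13, 0.772, 0 and 0 CPM in LN and at 0, 10.8, 0.0639 and 0.0241 CPM in VAT. The edgeR adjusted p between HFD VAT and HFD LN was 0.130, while DESeq2 gave 0.00137, and between HFD and lean VAT edgeR gave 0.551 and DESeq2 0.0467. The HFD groups overlapped because HFD LN replicate 4 also had no count.

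Ebp, the sterol isomerase, and Msmo1, the C4-methyl oxidase, had more than 3 counts in every library. Ebp was at 57.6 to 92.2 CPM in lean LN, 44.9 to 60.1 CPM in HFD LN, 13.9 to 80.5 CPM in lean VAT and 7.61 to 128 CPM in HFD VAT. The LN libraries of Ebp lay close together, while those of VAT spread widely, and the groups overlapped in each comparison. Msmo1 was at 32.4 to 60.4 CPM in lean LN, 29.1 to 50.3 CPM in HFD LN, 1.42 to 38.9 CPM in lean VAT and 24.7 to 75.8 CPM in HFD VAT. Its largest fitted difference was that between HFD and lean VAT, 1.21 (SE 0.72, edgeR adjusted p = 0.797).

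The lanosterol demethylase Cyp51, the C14 reductase Tm7sf2, the C4 decarboxylating dehydrogenase Nsdhl, the desaturase Sc5d and the final reductase Dhcr7 each had 3 counts or fewer in at least 1 library. Cyp51 ranged from 0 to 66.3 CPM within lean VAT and Nsdhl from 0 to 88.0 CPM within HFD VAT. Dhcr7 was even in lean LN, at 8.07, 8.37, 8.55 and 8.93 CPM, and uneven in HFD LN, at 16.5, 0, 23.4 and 14.2 CPM. Sc5d was at 53.3 to 91.6 CPM in 3 HFD VAT libraries and at 0 in the fourth. Tm7sf2 reached 42.0 CPM in HFD LN replicate 4 and had 3 counts or fewer in 6 of 16 libraries.

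**Figure D2:**
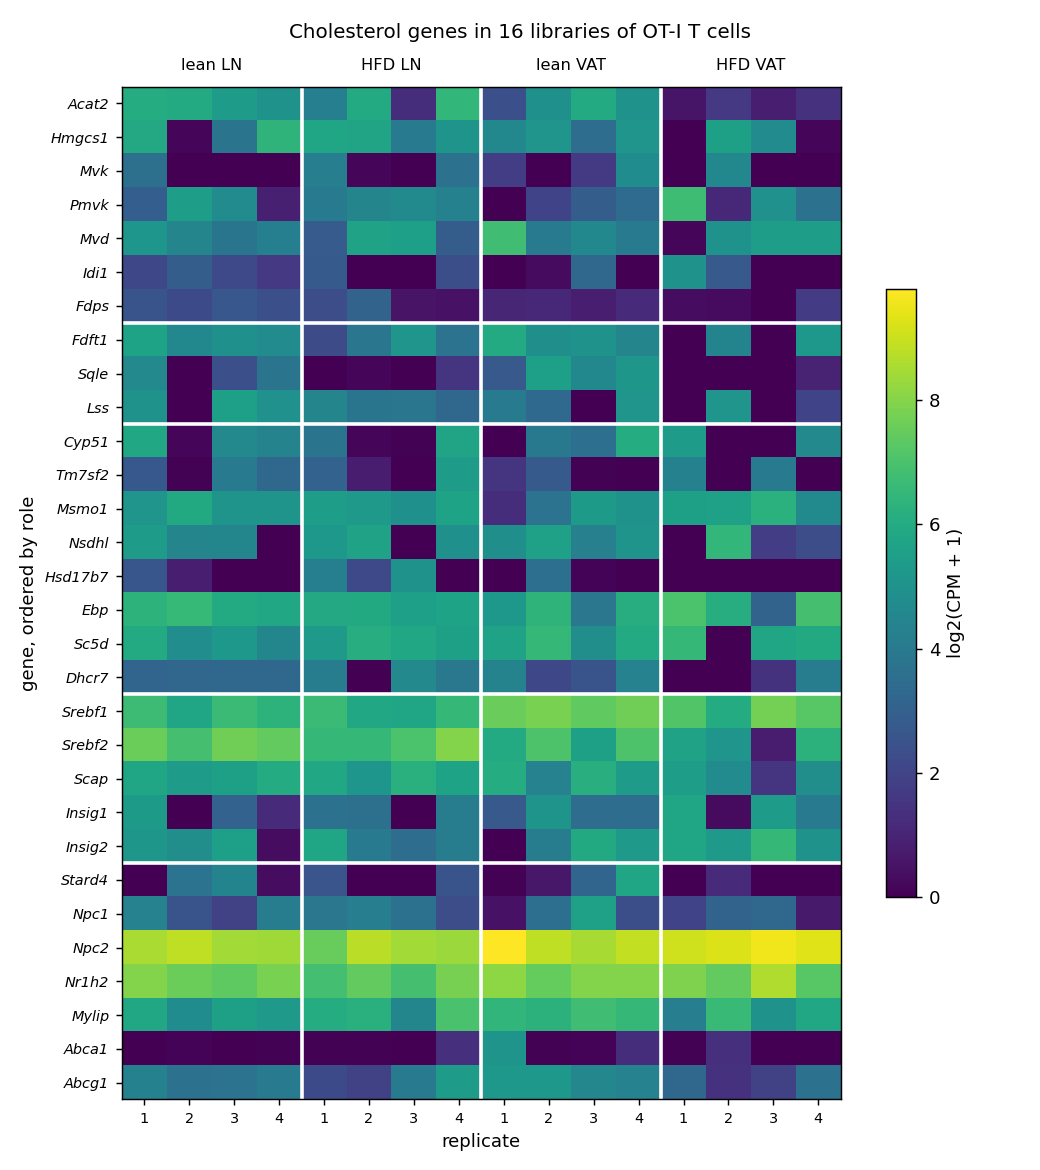
Level of each of the 30 genes in each of the 16 libraries, as log2(CPM + 1), with genes ordered by role and libraries by group. Acat2 is low in all 4 HFD VAT libraries, and gaps at 0 are scattered over many genes, most often in HFD VAT.

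Srebf1 and Srebf2 encode the precursors of SREBP1 and SREBP2, and their fitted tissue differences had opposite signs under both diets. Srebf1 stood at 104, 53.4, 102 and 78.8 CPM in lean LN (mean 84.6 ± 23.8, SD, n = 4) and at 187, 225, 170 and 204 CPM in lean VAT (mean 197 ± 23.6, SD, n = 4). These groups did not overlap. It stood at 100, 57.7, 53.7 and 89.7 CPM in HFD LN and at 139, 63.3, 213 and 150 CPM in HFD VAT, where replicate 2 overlapped the LN range. The fitted log2 difference of VAT over LN was 1.22 (SE 0.34, edgeR adjusted p = 0.0839) in lean animals and 0.91 (SE 0.34, edgeR adjusted p = 0.163) on HFD. Neither passed by edgeR. DESeq2 called both, with adjusted p of 0.0140 and 0.0461, and limma voom called the lean difference with 0.00780. SREBP1 has transcripts from separate start sites, and the counts per gene do not separate them.

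Srebf2, the main activator of the synthesis genes, stood at 191, 117, 201 and 171 CPM in lean LN and at 92.0, 90.3, 130 and 247 CPM in HFD LN. It stood at 62.1, 132, 46.5 and 131 CPM in lean VAT and at 48.8, 33.4, 0.670 and 77.1 CPM in HFD VAT. All HFD VAT libraries were below all HFD LN libraries, and the lean groups overlapped. The fitted log2 difference of VAT over LN was -1.81 (SE 0.83, unadjusted p = 0.0481, edgeR adjusted p = 0.261) on HFD and -0.87 (SE 0.81, edgeR adjusted p = 0.843) in lean animals. It was not called in any of 17 alternatives for HFD, all of which kept the direction.

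Scap, which escorts SREBP to the Golgi, and the retention factors Insig1 and Insig2 were not called by edgeR, DESeq2 or limma voom in any comparison. Scap was at 40.9 to 63.2 CPM in lean LN, 34.0 to 73.4 CPM in HFD LN, 19.2 to 70.4 CPM in lean VAT and 1.85 to 44.1 CPM in HFD VAT. HFD VAT replicate 3 gave the lowest value of both Scap and Srebf2. Insig1 ranged from 0.0180 to 39.1 CPM within lean LN and from 0.205 to 54.6 CPM within HFD VAT. Insig2 ranged from 0.261 to 44.7 CPM within lean LN and from 31.1 to 89.7 CPM within HFD VAT, where all libraries had counts.

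Npc2, the lysosomal protein that hands cholesterol to NPC1, was well above 3 counts in every library. Its levels were 376, 457, 344 and 335 CPM in lean LN (mean 378 ± 55.7, SD, n = 4) and 183, 432, 346 and 320 CPM in HFD LN (mean 320 ± 103, SD, n = 4). They were 884, 461, 363 and 480 CPM in lean VAT (mean 547 ± 230, SD, n = 4) and 541, 615, 769 and 638 CPM in HFD VAT (mean 641 ± 94.7, SD, n = 4). All HFD VAT libraries were above all HFD LN libraries, while lean VAT and lean LN overlapped. The fitted log2 difference of VAT over LN was 1.00 (SE 0.28, edgeR adjusted p = 0.0616) on HFD and 0.53 (SE 0.28, edgeR adjusted p = 0.460) in lean animals. The HFD value missed the threshold by edgeR with TMM scaling. It passed in 3 of 17 alternatives: RLE scaling (adjusted p = 0.0424), DESeq2 (0.00330) and limma voom (0.00889). In the others it was not called, with an edgeR adjusted p of up to 0.139, and all 17 kept the direction.

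Npc1, the membrane partner of Npc2, overlapped between the groups in every comparison. It was at 2.84 to 19.0 CPM in lean LN, 4.00 to 17.3 CPM in HFD LN, 0.407 to 47.1 CPM in lean VAT and 0.629 to 8.68 CPM in HFD VAT. Stard4, a cytosolic sterol carrier, had 3 counts or fewer in 7 of 16 libraries, with HFD VAT at 0, 1.23, 0 and 0 CPM and lean VAT at 0.0452, 0.567, 8.20 and 54.9 CPM. Nr1h2, which encodes LXR beta, was present in every library, at 162 to 247 CPM in lean LN, 115 to 220 CPM in HFD LN, 177 to 279 CPM in lean VAT and 152 to 392 CPM in HFD VAT. Its tissue difference on HFD was 0.61 (SE 0.30, edgeR adjusted p = 0.304).

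Mylip and Abcg1 are both known LXR targets. Mylip stood at 55.5, 26.1, 46.04 and 38.0 CPM in lean LN and at 85.1, 76.3, 110 and 90.4 CPM in lean VAT, which did not overlap. On HFD it stood at 65.6, 73.7, 21.4 and 125 CPM in LN and at 17.2, 96.6, 30.99 and 56.7 CPM in VAT, which overlapped. The log2 difference of VAT over LN was 1.13 (SE 0.55, edgeR adjusted p = 0.395) in lean animals and -0.50 (SE 0.54, edgeR adjusted p = 0.753) on HFD. The test of the difference between these gave -1.63 (SE 0.77, unadjusted p = 0.0525, edgeR adjusted p = 0.814).

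Abcg1, the exporter of cholesterol to lipoprotein particles, stood at 19.0, 11.5, 12.2 and 16.04 CPM in lean LN and at 36.1, 36.2, 22.3 and 19.1 CPM in lean VAT. It stood at 3.55, 2.71, 14.8 and 40.1 CPM in HFD LN and at 8.79, 1.66, 2.70 and 11.5 CPM in HFD VAT. Every lean VAT library was above every lean LN library, though the closest were at 19.1 and 19.0 CPM. Every lean VAT library was also above every HFD VAT library, while the HFD groups overlapped. The log2 difference was 0.95 (SE 0.87, edgeR adjusted p = 0.834) for lean VAT over lean LN and -2.20 (SE 0.90, unadjusted p = 0.0282, edgeR adjusted p = 0.557) for HFD over lean VAT. Abca1, the exporter of cholesterol to lipid-poor apolipoprotein, had 3 counts or fewer in 11 of 16 libraries. It reached 32.5 CPM in lean VAT replicate 1 and at most 1.60 CPM in the other 15. Its edgeR adjusted p for tissue in lean animals was 0.179, and DESeq2 called it with an adjusted p of 0.000890. In lean VAT only replicates 1 and 4 had more than 3 counts of it.

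In lean animals the fitted value was higher in VAT than in LN for 7 of the 7 transport, uptake control and efflux genes, with a median log2 difference of 0.95, and 0 of them passed by edgeR, with 1 at an unadjusted p under 0.05. Of the same 7 genes, 6 had a lower fitted value in HFD than in lean VAT, with a median of -1.65. It was lower for 5 with RLE scaling, no filter, DESeq2 and without the 3 VAT libraries named above. Leaving out HFD VAT replicate 1, 2 or 4, or lean VAT replicate 1, 3 or 4, also left 5 lower. The fitted values in lean animals stayed higher for 7 of 7 with RLE and upper quartile scaling, and for 6 of 7 when lean VAT replicate 3 or lean VAT replicate 4 was left out. The 2 comparisons share the lean VAT libraries. The medians of all tested genes were -0.00 for tissue in lean animals and -0.10 for diet in VAT. By role, the other genes were mixed for tissue in lean animals. The fitted value was higher in VAT for 2 of 7 mevalonate genes and 2 of 3 squalene and lanosterol genes. It was higher for 4 of 8 later enzymes and 3 of 5 SREBP control genes. For diet in VAT it was lower on HFD for 5, 3, 5 and 3 of them, in the same order.

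**Figure D3:**
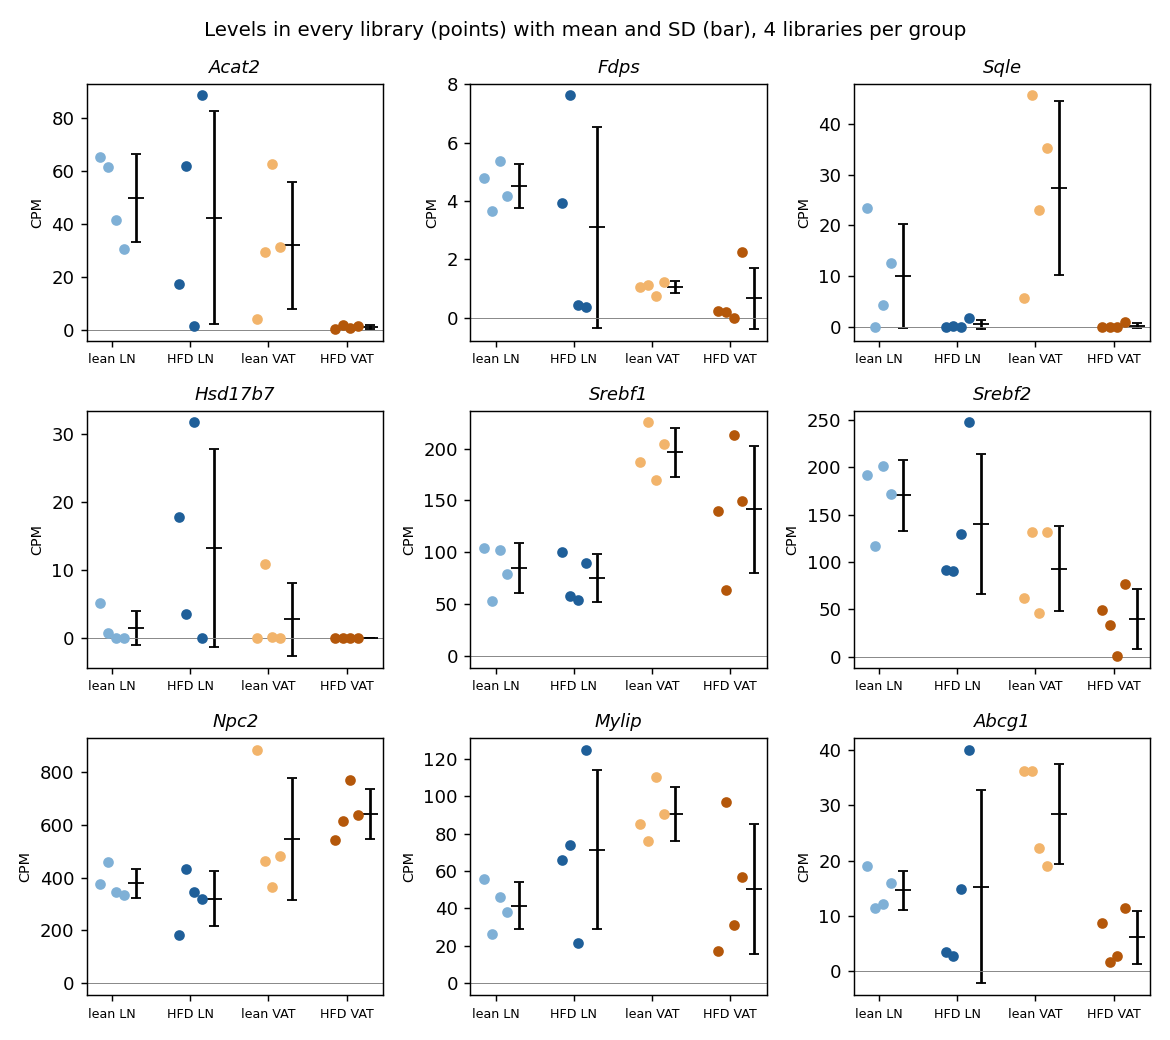
CPM of 9 genes in each library of the 4 groups, with the mean and the SD as bars. The HFD VAT libraries of Acat2 sit between 0.480 and 2.07 CPM, and those of Npc2 sit above the HFD LN libraries.

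Counts near 0 were frequent for these genes. Of the 120 values in each group, 16 in HFD LN (13.3%), 32 in HFD VAT (26.7%), 14 in lean LN (11.7%) and 15 in lean VAT (12.5%) were at 3 counts or fewer. The shares over all tested genes were 13.3%, 22.7%, 11.7% and 14.5% in the same order. The share of the sterol genes was above that of all tested genes in HFD VAT and below it in lean VAT. Of the 30 genes, 12 were above 3 counts in every library: Abcg1, Acat2, Ebp, Msmo1, Mvd, Mylip, Npc1, Npc2, Nr1h2, Scap, Srebf1 and Srebf2. Another 11 were at 3 counts or fewer in 1 to 4 libraries, and 7 in 5 or more: Idi1, Sqle, Tm7sf2, Stard4, Mvk, Hsd17b7 and Abca1. HFD LN replicate 3 had 9 sterol genes at 3 counts or fewer, the most in LN, where 15.7% of its tested genes were that low.

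The spread between replicates was large. The median coefficient of variation of the 30 genes was 0.486 in lean LN, 0.727 in HFD LN, 0.753 in lean VAT and 1.03 in HFD VAT. Over all tested genes the medians were 0.496, 0.509, 0.666 and 0.702 in the same order. The median of the sterol genes was slightly below that of the tested genes in lean LN and above it in the other 3 groups.

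**Figure D4:**
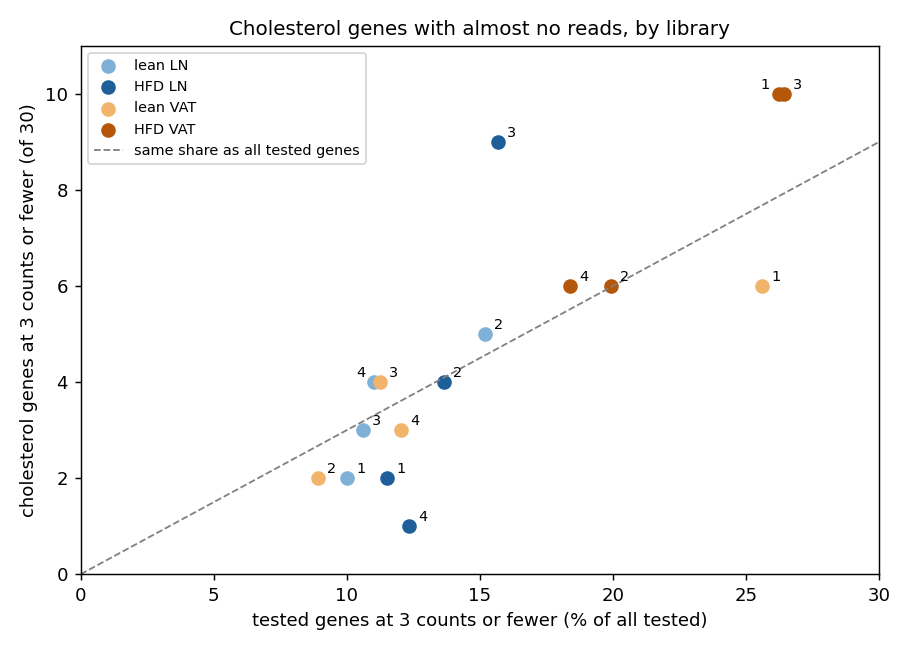
Number of the 30 genes at 3 counts or fewer in each library against the percent of all tested genes that low, with replicate numbers beside the points and a dashed line at equal shares. HFD VAT replicates 1 and 3 have 10 such genes each, beside 26.2% and 26.4% of tested genes.

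Of the 74 related genes listed by name, 66 could be tested, and edgeR called 2 of them, both in sterol transport and storage and both lower in HFD VAT than in HFD LN, where it called 4.56% of all tested genes and 1.88% as lower. Gramd1a, a carrier of cholesterol from the plasma membrane to the endoplasmic reticulum, stood at 1309, 1598, 1141 and 2076 CPM in HFD LN and at 613, 902, 714 and 434 CPM in HFD VAT. These groups did not overlap, and the log2 difference was -1.20 (SE 0.21, edgeR adjusted p = 0.00399). In lean animals it was -0.72 (SE 0.21, edgeR adjusted p = 0.1002), also without overlap. The HFD call held in 15 of 17 alternatives and was lost with limma voom (adjusted p = 0.0694) and without the 3 VAT libraries named above (0.0566).

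Scarb1, a receptor for high-density lipoprotein, stood at 29.4, 0.0589, 19.0 and 14.2 CPM in HFD LN, and the 4 HFD VAT libraries held 8 counts of it in all. HFD LN replicate 2 lay within the HFD VAT range. The edgeR adjusted p was 0.0247 on HFD and 0.0504 in lean animals, and the HFD call held in 8 of 16 alternatives. It was lost without HFD LN replicate 1 (0.0526) and without any one HFD VAT replicate (0.0670 to 0.0734). The summed B cell markers given above were also lower in VAT than in LN, and their part in the falls of Gramd1a, Scarb1 and Acat2 was not tested.

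The 49 tested genes of the other 5 lists gave 0 calls by edgeR in each of the 5 comparisons. At an unadjusted edgeR p under 0.05, 7 of the 49 (1 higher, 6 lower) differed between HFD VAT and HFD LN and 5 (3 higher, 2 lower) between lean VAT and lean LN, shares below those of all tested genes given above. At that p, 5 (1 higher, 4 lower) differed between HFD and lean VAT, a share above the 8.08% of all tested genes. In addition, 1 (lower) differed between HFD and lean LN and 1 (lower) in its diet effect, where 3.37% and 6.16% of all tested genes lay under that p. In the same order of comparisons, DESeq2 called 5, 1, 4, 0 and 2 of the 49, and limma voom called 1, 4, 0, 0 and 0. The DESeq2 count of 4 between HFD and lean VAT was above the 5.03% of all genes it called. The other counts were not above the shares of all genes given above.

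By list, the median log2 difference of VAT over LN was -0.00 on HFD and -0.04 in lean animals for the 14 genes of the isoprenoid branch, which draws on the same mevalonate. It was 0.11 and 0.40 for the 10 genes that process and degrade SREBP and its partners, and -0.29 and -0.54 for the 7 other sterol genes. The 8 tested oxysterol and LXR genes had medians of 0.44 and 0.94. The 10 tested SREBP1-linked fatty acid genes had medians of -0.52 and 0.16. Over all tested genes the medians were -0.10 and -0.00.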

How the data were processed

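The authors deposited raw counts per gene for 16 libraries, as whole numbers, in 54456 rows, and every column was matched to a sample. The submitters' processing notes list kallisto 0.42.4, DESeq2 and, as the genome build, GRCh38, which is human, whereas the table names mouse genes. How estimates became whole counts is not given in the sources used here. The labels name 2 library kits and sequencers and a culture protocol for another cell type, so read length and chemistry are uncertain. Counts come from PCR-amplified cDNA and are not independent molecules.

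Counts were tested with edgeR 4.0.16 in R 4.3.3: filterByExpr with the 4 groups (15675 genes), TMM scaling, robust quasi-likelihood fit of all 16 libraries, Benjamini-Hochberg adjustment over all tested genes, threshold 0.05. The SE of a log2 difference is its size divided by the square root of the quasi-likelihood F, an approximation. Alternatives were RLE and upper quartile scaling, no filter, a filter of at least 5 CPM in 4 libraries, DESeq2 1.42.0, limma 3.58.1 voom with quality weights, fits on only the groups compared, a replicate block and each library left out. One more, without 3 VAT libraries, was added after the data were seen.

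The members, lists and comparisons were chosen with earlier results of these data known. The rule gives values in every library for genes that passed in a comparison, or did not overlap between tissues in the same direction under both diets, which named Acat2. Related genes are named where they passed, which named Gramd1a and Scarb1. Other genes are given in full because of values seen in the data. Annotation is GENCODE M21 and shared 31-base words were counted in its transcripts. Promoter windows are from RefSeq GRCm38.p6. Figures were drawn with Python 3.11.15 and Matplotlib 3.10.9.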

Additional observations from a re-analysis of the deposited data

Results flagged for a closer look

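Within a group of 4 libraries, 1 library stood far from the other three for 18 of 120 gene and group sets, by Dixon's gap on log2(CPM + 1). These are 15% of the sets, and 15.1% of the 62700 sets of all tested genes had such a library. Chance marks about 1 in 20 sets of untied values, a rate that does not hold here. In 4 of the 18 (Mvk in lean LN, and Sqle, Hsd17b7 and Stard4 in HFD VAT) all other libraries of the group were at 0, so that any count stands apart. Over all tested genes this was so in 2434 of the 9493 sets with such a library, so these ties cover only a part. In 7 of the 18 sets the library was the lowest, and in 11 the highest. HFD VAT held 7 of them, HFD LN 5, lean LN 4 and lean VAT 2.

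Among the mevalonate genes, Mvk stood apart at 23.0 CPM in HFD VAT replicate 2 and at 11.1 CPM in lean LN replicate 1, where the other three libraries of each group were at or near 0. Mvd was low at 0.0873 CPM in HFD VAT replicate 1, against 31.6 to 44.2 CPM in the others. Idi1 was high at 8.58 CPM in lean VAT replicate 3.

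Sqle was high at 1.77 CPM in HFD LN replicate 4 and at 0.955 CPM in HFD VAT replicate 4. Lss was at 0 CPM in lean LN replicate 2, against 30.3 to 45.3 CPM in the others.

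Among the later enzymes, Msmo1 was high at 60.4 CPM in lean LN replicate 2. Nsdhl was at 0 CPM in HFD LN replicate 3, Dhcr7 at 0 CPM in HFD LN replicate 2, and Sc5d at 0 CPM in HFD VAT replicate 2, where its other libraries were at 53.3 to 91.6 CPM. Hsd17b7 was high at 10.8 CPM in lean VAT replicate 2, and its 1 count in HFD VAT, 0.0233 CPM, was in replicate 4.

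Insig1 was low at 0.0220 CPM in HFD LN replicate 3, and Insig2 at 0.261 CPM in lean LN replicate 4. Stard4 was high at 1.23 CPM in HFD VAT replicate 2. Abca1 was high at 1.60 CPM in HFD LN replicate 4 and at 1.55 CPM in HFD VAT replicate 2.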

How the results depend on the processing

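For sterol genes called between HFD VAT and HFD LN (1), the count was 2 with RLE scaling, 4 with DESeq2, 0 with only the groups compared, 0 without the 3 sparse VAT libraries and 0 to 1 with each library left out. DESeq2 called 2 for tissue in lean animals, 3 for diet in VAT and 1 for the difference between diet effects, and limma voom called 1 for tissue in lean animals, where edgeR called 0 each time. Over all genes, HFD VAT against HFD LN (714 calls) gave 441 with no filter, 2578 with DESeq2 and 483 to 632 with each library left out. Lean tissue (476) gave 1569 with DESeq2, 1373 with limma voom and 325 to 492 with each library left out. Diet in VAT (9) gave 2 with no filter, 769 with DESeq2, 32 with limma voom, 0 with only the groups compared, 62 without the 3 sparse VAT libraries and 3 to 40 with each library left out. Diet in LN (0) gave 236 with DESeq2, 3 with limma voom and 0 to 1 with each library left out. The difference between diet effects (3) gave 1 with upper quartile scaling, 1 with no filter, 1 with the stricter filter, 635 with DESeq2, 6 with limma voom, 46 without the 3 sparse VAT libraries and 0 to 24 with each library left out. The causes were not tested.

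Libraries with the same replicate number did not deviate together (16 pairs, r from -0.0786 to 0.0393). The labels do not say that the numbers pair libraries, and they are not taken as pairs. A low r cannot show that libraries of the same number came from different animals, because the spread between libraries was wide. With the replicate number as a block, 0 sterol genes were called between HFD VAT and HFD LN (Acat2 adjusted p = 0.0504), and over all genes 1 for diet in VAT and 0 for the difference, and 6 of the 7 transport, uptake control and efflux genes had a higher fitted value in lean VAT than in lean LN.

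The limits are the low counts of many genes, 4 libraries a group and a wide spread between them. Direction held in every alternative that gave a value for Acat2, Npc2, Srebf2, Gramd1a and Scarb1 between HFD VAT and HFD LN, for Srebf1, Fdps, Mylip and Abcg1 between lean VAT and lean LN, and for Acat2, Sqle and Abcg1 between HFD and lean VAT.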

Other observations

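Soat2, the sterol acyltransferase that esterifies cholesterol for storage, was chosen after its values were seen. It had no count in the 4 HFD LN libraries and stood at 109, 55.7, 4.77 and 26.5 CPM in HFD VAT. The groups did not overlap, and the edgeR adjusted p was 0.0808, so it did not pass. In lean animals it stood at 0, 14.1, 0.0193 and 0 CPM in LN and at 0, 22.8, 24.1 and 18.3 CPM in VAT, which overlapped (edgeR adjusted p = 0.899).

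Nr1h3, which encodes LXR alpha and was also chosen after its values were seen, had no count in HFD VAT and 2 counts in all in HFD LN. It reached 2.72 CPM in lean LN and 13.4 CPM in lean VAT, where 1 and 2 of the 4 libraries had 3 counts or fewer. By edgeR its adjusted p was 0.441 between HFD and lean VAT and 1 in LN.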
